A study of Mus musculus with 8 samples.

Results

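N2A cells, a mouse neuroblastoma line of sympathetic type that extends neurites, were followed at 4 time points from 2 h to 8 h after addition of the agonist HU210 or of its vehicle, and the comparison described here sets the late libraries (6 h and 8 h) against the early libraries (2 h and 4 h) over both additions. A gene entered when it was listed at all 4 time points in the deposited table, which holds for 15894 of its 16974 genes, and 11311 of these had a mean FPKM (fragment counts divided by transcript length and by sequencing depth) of at least 1 over the 8 libraries and were tested. All cells had grown in MEM with 10% fetal bovine serum and were held for 16 h in MEM with 0.1% bovine serum albumin before the addition. The treated cells then received 2 µM HU210, an agonist of the cannabinoid receptor CB1R that was dissolved in DMSO, and the control cells received drug-free DMSO for the same time. Each of the 8 libraries was made from mRNA pooled over 2 to 3 independent experiments, and there is 1 library for each combination of hour and addition. The early side therefore consists of HU210 at 2 h, DMSO at 2 h, HU210 at 4 h and DMSO at 4 h, and the late side of the same at 6 h and 8 h. These 4 libraries are not replicates of 1 condition, and the p-values below measure only the spread among them. Cells without any addition, and cells at the end of the starvation, are not part of the comparison, so hours since addition and total hours without serum cannot be told apart.

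Serum supplies growth factors, lipids and hormones. Cells that lose it lower growth factor signalling through the ERK and insulin receptor pathways, which act on genes of cell division and ribosome production. All cells here had been without serum for 16 h before the addition, and the part of serum loss in the differences was not tested. The same kind of cell can leave division and extend neurites, for which microtubule proteins, axonal enzymes and adhesion molecules are made. CB1R couples to inhibitory G proteins and acts on ERK and on neurite outgrowth. A difference of like size in the HU210 and the DMSO libraries is seen with and without the agonist, and its cause was not tested.

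The line was checked by its markers. Of 20 markers of sympathetic neuroblastoma, 16 were listed, and 15 had a mean FPKM of at least 1. Hand2, a transcription factor of sympathetic neurons, lay between 70.5 and 108 FPKM, and Ret, a receptor of the GDNF family ligands, between 104 and 120 FPKM. The summed level of the listed markers was 642 to 730 FPKM in the early and 662 to 787 FPKM in the late libraries. Markers of other cells were low on both sides. The summed levels were 2.22 to 2.38 FPKM early and 2.17 to 2.45 FPKM late for 3 fibroblast markers, 1.51 to 1.67 and 1.70 to 2.13 FPKM for 3 endothelial markers, and at most 0.614 FPKM in any library for 3 macrophage, 1 astrocyte and 2 epithelial markers. Itgam, an integrin of macrophages, was listed at 0 in at least 1 library.

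No gene passed the test. With limma on log2(FPKM + 1), with the addition as a covariate and Benjamini-Hochberg adjustment over all 11311 genes, the smallest adjusted p was 0.235, against a threshold of 0.05, and 0% of the genes were called in either direction. At an unadjusted p under 0.05 there were 490 genes with higher and 325 with lower values late, which is 4.33% and 2.87% of all tested genes, and with each library centred on its median the counts were 400 and 459. All 4 late values lay above all 4 early values for 366 genes (3.24%) and below them for 249 genes (2.2%). A difference of at least 1.3-fold on the log2(FPKM + 1) scale was found for 155 genes in the higher direction (1.37%) and for 60 in the lower direction (0.53%). The median difference over all genes was -0.0071 and the median standard error 0.10 on the log2(FPKM + 1) scale. The genes below are therefore named with their values, and none of them is called.

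The libraries differed in 2 ways that bear on every value. First, the deviation from the gene mean followed GC content in some libraries, most in the pair at 4 h, which lay at opposite ends with a Spearman rho across genes of 0.45 for HU210 and -0.46 for DMSO. In the other 6 libraries the rho lay between -0.15 and 0.27, with -0.038 in DMSO at 2 h and 0.023 in DMSO at 8 h. The first principal component, with 34.8% of the variance, separated those 4 h libraries, and the deviations of the HU210 and the DMSO library correlated at -0.53 across genes at 4 h but at 0.23, 0.15 and 0.26 at 2 h, 6 h and 8 h. Second, the deviation followed transcript length, with a rho of -0.26 to -0.097 in 3 early libraries, 0.10 in DMSO at 4 h and 0.047 to 0.17 in the 4 late libraries. Longer transcripts were thus, on average, higher in the late libraries. The second component, with 21.3% of the variance, cut across the sides. It placed the 2 h and 6 h libraries between 6.16 and 11.8 and the 4 h and 8 h libraries between -16 and -4.37. The third component, with 15.4% of the variance, placed the 4 early libraries between -8.52 and -4.79 and the 4 late libraries between 2.07 and 13.9.

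**Figure D1:**
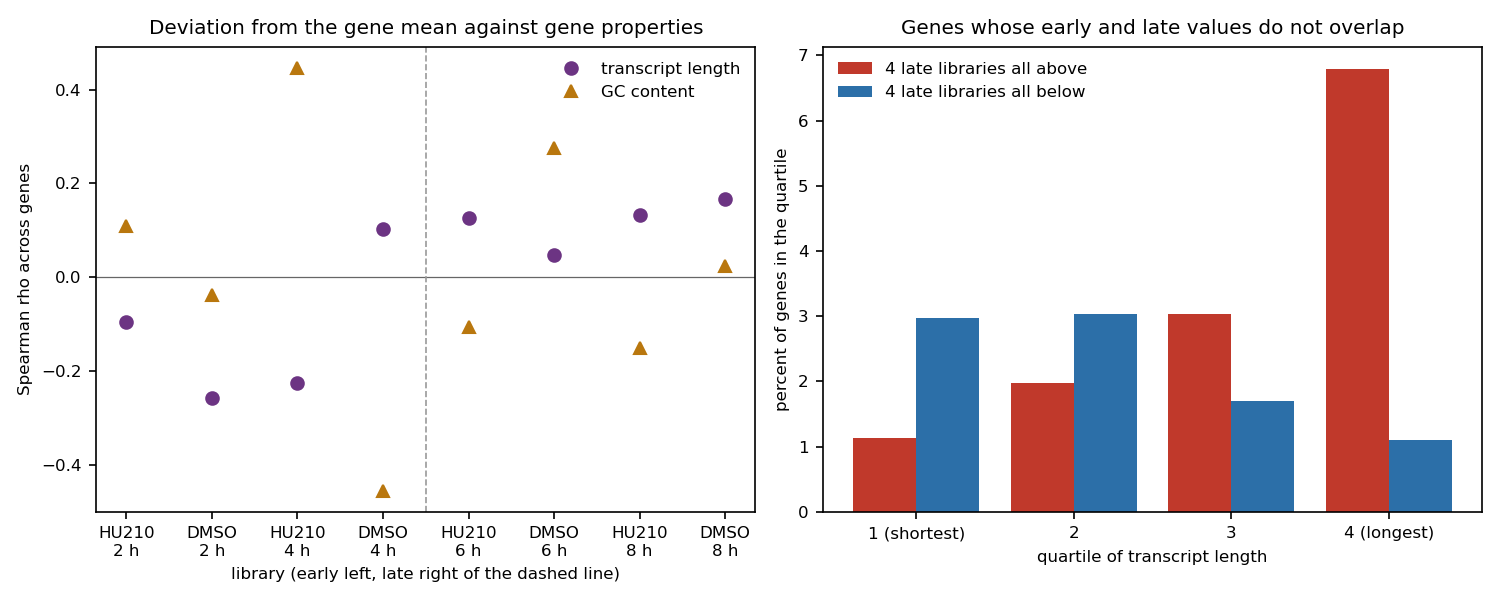
The left panel plots for each of the 8 libraries the Spearman rho, across genes, between the deviation from the gene mean and transcript length (circles) or GC content (triangles), with early libraries left of the dashed line. The right panel plots, for each quartile of transcript length, the percent of genes whose 4 late values all lie above (red) or below (blue) the 4 early values; the red share goes from 1.13% in the shortest to 6.79% in the longest quartile.

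In the shortest quartile of transcripts the median difference was -0.047 on the log2(FPKM + 1) scale, and 1.13% of the genes had all late values above and 2.97% all below the early ones. In the longest quartile, from 5500 bases, the median was 0.044 and the shares were 6.79% and 1.10%. The rho of the difference with length was 0.24 across genes. After a GC and length trend had been taken out from each library, the shares in the longest quartile were 5.06% and 2.90%, and in the shortest 2.30% and 2.09%. How much of any gene's difference goes with length was not tested gene by gene, and the value with the trend removed is given below where it matters.

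The 12 genes with the smallest p in the higher direction are described first. Dpysl2, which encodes the tubulin-binding protein CRMP2 of growing axons (chromosome 14, 67421701 to 67487525 in mm9), had the smallest p of all genes. In this and the following sentences the FPKM values are given in the order HU210 and then DMSO. Dpysl2 stood at 20.01 and 22.02 at 2 h, 21.2 and 25.7 at 4 h, 37.8 and 34.8 at 6 h and 38.7 and 37.3 at 8 h FPKM. All late values lay above all early ones, and DMSO at 4 h was the highest early library. The difference was 0.72 ± 0.089 (SE) on the log2(FPKM + 1) scale, 1.65-fold, with an adjusted p of 0.235 by limma. With the GC and length trend taken out the difference was 0.72 with an adjusted p of 0.0224 by limma, the only call that this alternative gave.

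Map1b, a microtubule-associated protein of neurites, was the most abundant of the 12 and stood at 105 and 104 at 2 h, 102 and 125 at 4 h, 151 and 143 at 6 h and 161 and 154 at 8 h FPKM. Its difference was 0.48 ± 0.091 (SE), and the value of DMSO at 4 h stood above the other 3 early ones, so that the early side reached closest to the late side there. Nmnat2, the NAD-synthesizing enzyme of axons, was listed at 13.3 and 13.5 at 2 h, 13.7 and 15.4 at 4 h, 19.3 and 18.1 at 6 h and 20.5 and 21.3 at 8 h FPKM, a difference of 0.47 ± 0.082 (SE). The late values of both genes lay above every early value.

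Nectin1, an immunoglobulin-type cell adhesion molecule, had values of 5.43 and 5.29 at 2 h, 5.47 and 6.28 at 4 h, 8.99 and 8.63 at 6 h and 8.49 and 9.19 at 8 h FPKM, and the difference was 0.57 ± 0.074 (SE, adjusted p = 0.235 by limma). Hspg2, which encodes the basement membrane proteoglycan perlecan, stood at 24.6 and 23.02 at 2 h, 23.6 and 20.8 at 4 h, 29.98 and 31.5 at 6 h and 30.2 and 30.6 at 8 h FPKM, a difference of 0.40 ± 0.073 (SE). With the trend removed the difference of Hspg2 was 0.26, and that of Nectin1 was 0.54. Lrrc8a, the obligatory subunit of the volume-regulated anion channel, gave 8.07 and 6.97 at 2 h, 7.64 and 6.75 at 4 h, 10.2 and 10.7 at 6 h and 11.3 and 10.1 at 8 h FPKM and a difference of 0.47 ± 0.072 (SE). Arhgap26, a GTPase-activating protein, had the longest transcript of the group at 17331 bases, and its difference of 0.43 became 0.30 with the trend removed.

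Of the regulators of chromatin and transcription, Crebbp, the histone acetyltransferase and coactivator CBP, stood at 8.32 and 7.62 at 2 h, 8.32 and 10.2 at 4 h, 13.6 and 13.1 at 6 h and 13.8 and 14.3 at 8 h FPKM, with a difference of 0.62 ± 0.092 (SE). Kdm6b, which removes methyl groups from lysine 27 of histone H3, was at 12.8 and 11.3 at 2 h, 11.8 and 11.7 at 4 h, 16.2 and 17.8 at 6 h and 18.7 and 16.6 at 8 h FPKM, with a difference of 0.50 ± 0.075 (SE). In both genes all late values lay above all early ones. Zfhx3, a zinc-finger homeobox factor, lay at 2.30 and 2.22 at 2 h, 2.27 and 2.96 at 4 h, 4.06 and 3.94 at 6 h and 3.83 and 3.57 at 8 h FPKM, a difference of 0.50, or 0.36 with the trend removed. Rbms3, an RNA-binding protein, was at 7.77 and 6.76 at 2 h, 7.32 and 7.34 at 4 h, 10.04 and 9.94 at 6 h and 11.05 and 11.8 at 8 h FPKM, a difference of 0.49 ± 0.081 (SE). Dnase2b, an acid DNase, was the lowest of the 12, at 0.877 and 0.597 at 2 h, 1.33 and 0.659 at 4 h, 2.39 and 1.88 at 6 h and 2.21 and 1.36 at 8 h FPKM, and HU210 was above DMSO at every hour. Its difference was 0.67 ± 0.1 (SE).

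**Figure D2:**
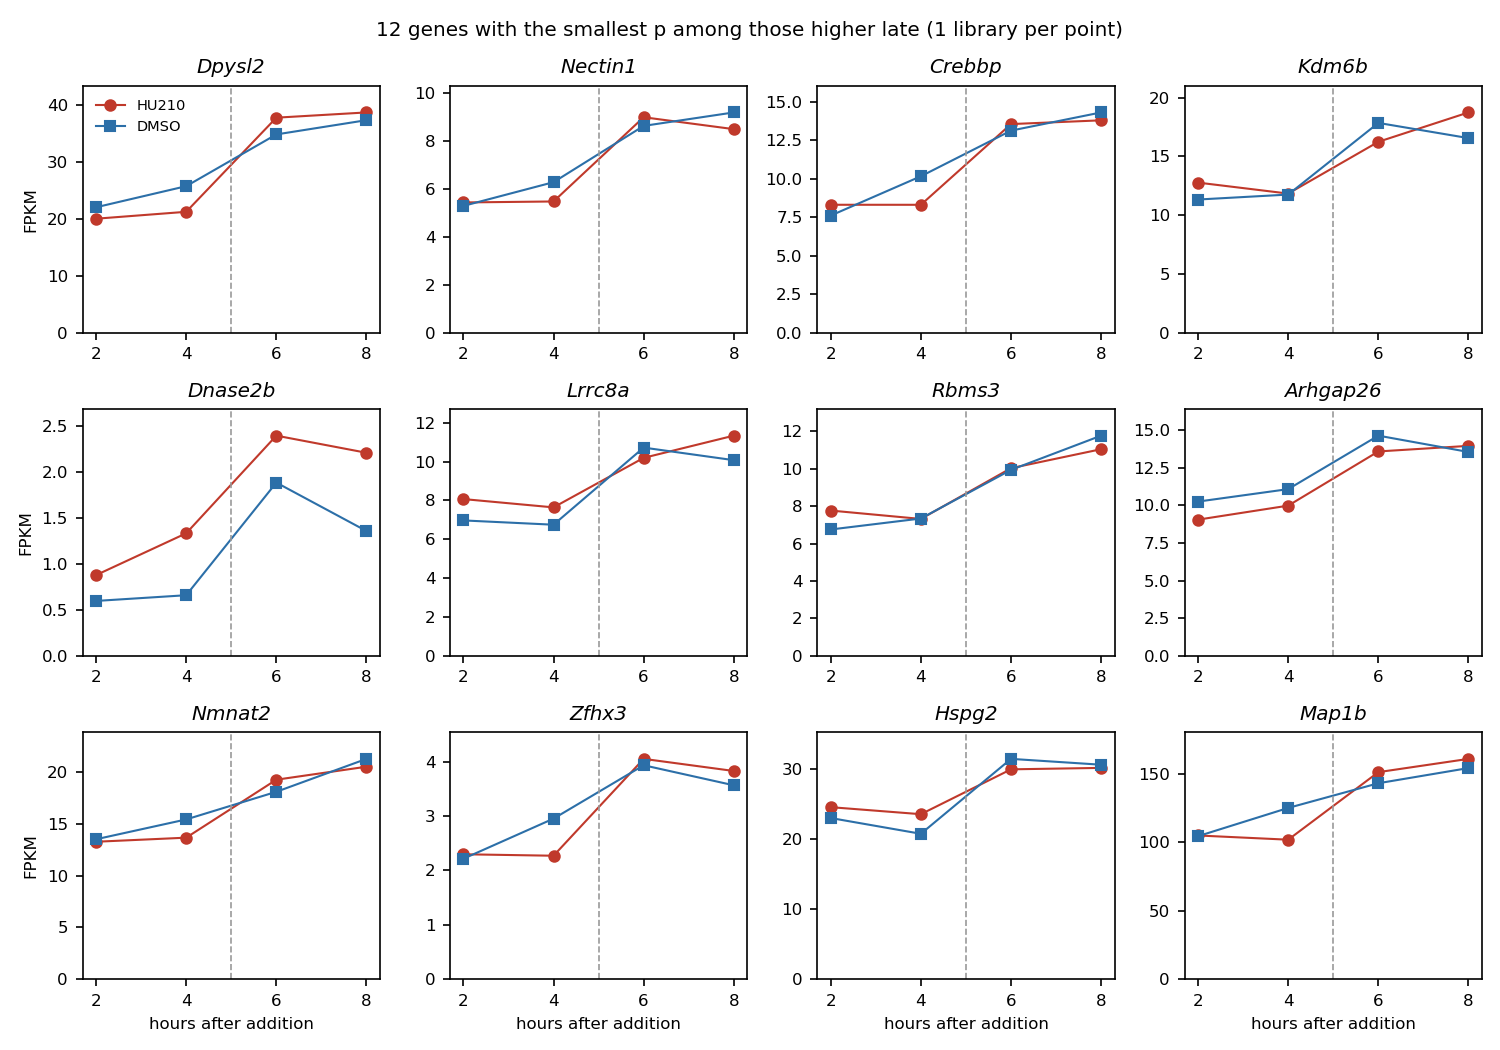
Each panel plots the FPKM of 1 gene (vertical axis, from 0) against hours after addition (horizontal axis) for the HU210 libraries (red circles) and the DMSO libraries (blue squares), with 1 library per point, and a dashed line between the early and the late side. In all 12 panels the 4 points right of the line lie above the 4 points left of it, and in Dpysl2 and Map1b the DMSO point at 4 h is the highest early one.

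These 12 genes were chosen by their p, so that the order of their libraries is a description. In all 12 the sides did not overlap, against 3.24% of all tested genes, and the differences ran from 0.40 to 0.72. Their median transcript length was 7231 bases, against 3539 bases over all tested genes, with a range of 2580 to 17331 bases.

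The 12 genes with the smallest p in the lower direction had no member that passed the test either. Cdca8, which encodes borealin of the chromosomal passenger complex, stood at 36.3 and 35.7 at 2 h, 40.96 and 39.1 at 4 h, 29.5 and 27.3 at 6 h and 27.03 and 29.9 at 8 h FPKM, a difference of -0.40 ± 0.078 (SE, adjusted p = 0.471 by limma). Kif22, a kinesin that binds chromosome arms, was at 31.3 and 31.4 at 2 h, 29.4 and 30.5 at 4 h, 24.95 and 23.997 at 6 h and 25.9 and 23.9 at 8 h FPKM and differed by -0.30 ± 0.067 (SE). Orc6, a subunit of the origin recognition complex, was at 35.1 and 38.98 at 2 h, 31.3 and 38.2 at 4 h, 26.95 and 26.1 at 6 h and 29.6 and 27.97 at 8 h FPKM and differed by -0.36 ± 0.087 (SE). In these 3 genes every late value lay below every early value.

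Srsf5, a splicing factor of the SR family, had the smallest p in the lower direction (adjusted p = 0.401 by limma) and stood at 90.2 and 113 at 2 h, 91.4 and 93.2 at 4 h, 60.4 and 60.1 at 6 h and 72.4 and 65.4 at 8 h FPKM. Its highest value was DMSO at 2 h, and the difference was -0.58 ± 0.10 (SE). Nsun2, which methylates cytosines in RNA, was abundant at 158 and 166 at 2 h, 165 and 144 at 4 h, 126 and 132 at 6 h and 124 and 114 at 8 h FPKM and differed by -0.35 ± 0.084 (SE). Nol7, a nucleolar protein, was the only 1 of the 12 whose sides overlapped, at 16.8 and 18.9 at 2 h, 14.2 and 19.1 at 4 h, 12.4 and 14.3 at 6 h and 9.46 and 12.9 at 8 h FPKM, and it differed by -0.46 ± 0.098 (SE).

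Ache, which encodes acetylcholinesterase (chromosome 5, 137728747 to 137735694 in mm9), had the largest difference of all 24. Its values were 6.96 and 7.36 at 2 h, 6.45 and 16.3 at 4 h, 3.79 and 3.87 at 6 h and 3.57 and 3.57 at 8 h FPKM, and DMSO at 4 h stood far above the other early libraries. The difference was -1.03 ± 0.22 (SE), a ratio of late over early of 0.488, with an adjusted p of 0.518 by limma. Without the 4 h libraries it was -0.80, and without the 2 h libraries -1.27. All late values lay between 3.57 and 3.87 FPKM. Htr3a, a subunit of the serotonin-gated cation channel, stood at 23.6 and 26.2 at 2 h, 24.8 and 25.2 at 4 h, 20.6 and 18.1 at 6 h and 16.5 and 19.9 at 8 h FPKM and differed by -0.40 ± 0.085 (SE).

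Pde9a, a phosphodiesterase of cyclic GMP, was at 2.59 and 3.20 at 2 h, 2.65 and 2.93 at 4 h, 2.06 and 1.72 at 6 h and 1.81 and 1.97 at 8 h FPKM, with a difference of -0.41. Mcam, an adhesion molecule of the immunoglobulin family, was at 5.84 and 5.52 at 2 h, 4.68 and 6.26 at 4 h, 3.89 and 3.84 at 6 h and 4.12 and 4.27 at 8 h FPKM, with a difference of -0.38. The sides did not overlap in either gene. The long non-coding RNA Crnde differed by -0.29 and Rpgr, a protein of the ciliary base, by -0.39, both at low levels of 2.52 to 4.80 FPKM. The median transcript length of the 12 was 3092 bases, below the 3539 bases of all tested genes, and the differences ran from -1.03 to -0.29.

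**Figure D3:**
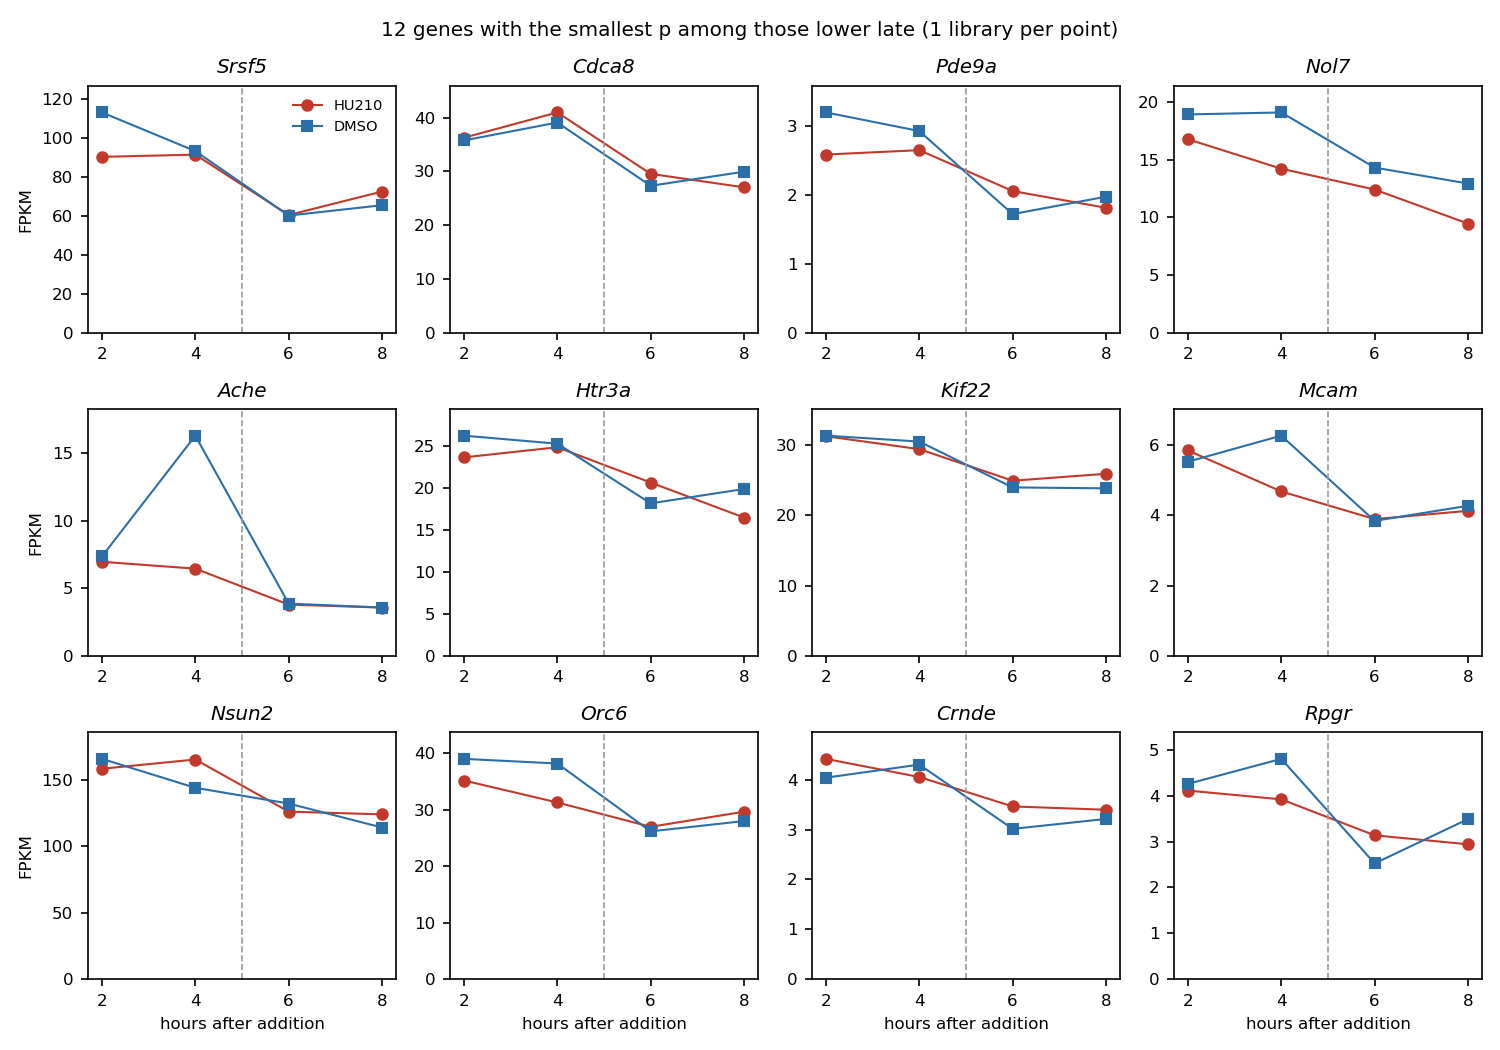
Each panel plots the FPKM of 1 gene (vertical axis, from 0) against hours after addition for the HU210 libraries (red circles) and the DMSO libraries (blue squares), 1 library per point, with a dashed line between the early and the late side. In 11 of the 12 panels the late points lie below all early points, Nol7 being the exception, and in Ache the DMSO point at 4 h reaches 16.3 FPKM.

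Of 28 lists of related genes, those of cell division lay lowest over both additions, while sterol synthesis was lower than both within HU210 and, at -0.23 for it and for mitosis, about as low as mitosis without the 4 h libraries. The mitosis list, with cyclins, spindle kinases, kinesins and condensins, had a median difference of -0.16 over its 79 tested members, against -0.0071 over all tested genes, and 74 of the 79 were below 0, against 52.2% of all genes. No member passed the test. In bulk RNA, fewer dividing cells and less of these mRNAs in each cell cannot be told apart. At an unadjusted p under 0.05, 26 members were lower and 1 was higher, against 2.87% and 4.33% of all genes. The sides did not overlap in the lower direction for 14 members (17.7%, against 2.2% of all genes), namely Ccnb2, Ccnf, Aurka, Mad2l1, Cenpa, Kif22, Ube2c, Cdc20, Cdc25c, Cdca3, Cdca8, Pttg1, Ncapd2 and Ncaph. The 5 members above 0 were Cdca2, Kif14, Cenpe, Mki67 and Cenpf. Cenpa, the histone H3 variant of centromeres, was at 59.5 and 55.1 at 2 h, 50.2 and 51.6 at 4 h, 43.9 and 44.96 at 6 h and 40.9 and 41.9 at 8 h FPKM, a difference of -0.33 ± 0.081 (SE). Ccnb1, the cyclin that drives entry into mitosis with Cdk1, was at 60.7 and 60.04 at 2 h, 39.1 and 51.2 at 4 h, 45.4 and 39.01 at 6 h and 38.4 and 30.7 at 8 h FPKM, and its sides overlapped, with HU210 at 4 h inside the late range and a difference of -0.44 ± 0.17 (SE).

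The mean deviation of the mitosis members from their gene means was 0.10 for HU210 and 0.16 for DMSO at 2 h, -0.061 and 0.11 at 4 h, -0.031 and -0.13 at 6 h, and -0.075 for both at 8 h. HU210 at 4 h was thus the only early library below 0, and it lay within the range of the late libraries. The median of the list was -0.22 within the DMSO libraries and -0.063 within the HU210 libraries, where the medians over all tested genes were -0.058 and 0.061. It was -0.16 with the GC and length trend taken out, -0.23 without the 4 h libraries and -0.084 without the 2 h libraries.

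The list of G1/S and DNA replication genes had a median of -0.15, with 60 of 68 members below 0, 11 lower and 0 higher at an unadjusted p under 0.05, against 2.87% and 4.33% of all genes, and 0 called. In 9 members (13.2%, against 2.2% of all genes) the late values all lay below the early ones, namely Mcm3, Mcm5, Mcm7, Orc6, Gins4, Pcna, Rfc3, Rfc4 and Chaf1b. Pcna, the sliding clamp of DNA polymerases, stood at 151 and 161 at 2 h, 167 and 153 at 4 h, 134 and 136 at 6 h and 125 and 142 at 8 h FPKM, a difference of -0.23 ± 0.078 (SE). Mcm5, a subunit of the replicative helicase, stood at 65.6 and 71.7 at 2 h, 66.9 and 63.1 at 4 h, 58.4 and 53.8 at 6 h and 56.8 and 60.8 at 8 h FPKM, a difference of -0.21 ± 0.077 (SE). Both sets of late values were below the early ones, by less than 1.3-fold. The median of the G1/S list was -0.18 within DMSO and -0.040 within HU210, beside -0.058 and 0.061 over all genes. The mean deviation of its members in HU210 at 4 h was -0.03925, just inside the late range of -0.1177 to -0.03905. The list of G1 inhibitors and pocket proteins had a median of -0.031 over 18 members, with 13 below 0 and none outside the overlap in either direction. Its median was -0.23 within DMSO and 0.13 within HU210, beside -0.058 and 0.061 over all genes. The p53 targets had a median of 0.0098 over 24 members, 13 above 0.

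The sterol synthesis list came next, with a median of -0.14 and 22 of 25 members below 0. At an unadjusted p under 0.05, 8 members were lower and 0 higher, against 2.87% and 4.33% of all genes, and the sides did not overlap for 4 (16%, against 2.2% of all genes), which were Mvk, Idi1, Fdft1 and Acat2. Idi1, the isomerase that makes dimethylallyl diphosphate, stood at 52.1 and 49.2 at 2 h, 37.5 and 39.03 at 4 h, 32.7 and 28.6 at 6 h and 34.2 and 23.6 at 8 h FPKM, a difference of -0.56 ± 0.14 (SE). The list's median was -0.18 within DMSO and -0.14 within HU210. The mean deviation of its members was highest at 2 h, at 0.19 with HU210 and 0.14 with DMSO, and lowest in DMSO at 8 h, at -0.16, and HU210 at 4 h, at -0.048, lay within the range of the late libraries. Without the 2 h libraries the list's median was -0.054. The fatty acid synthesis list had a median of -0.017 over 23 members, with 13 below 0. Its only member below without overlap was Hsd17b12 (4.35%, against 2.2% of all genes).

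Lists of RNA and protein production also lay below the median of all genes. For ribosome biogenesis the median was -0.10, with 55 of 64 members below 0, against 52.2% of all genes. Without overlap, 6 members lay below (9.38%, against 2.2% of all genes). Nop56, a core protein of box C/D snoRNPs, was at 186 and 176 at 2 h, 163 and 175 at 4 h, 131 and 138 at 6 h and 151 and 146 at 8 h FPKM, a difference of -0.30 ± 0.083 (SE). Fbl, the methyltransferase of the same particle, was at 36.7 and 44.1 at 2 h, 48.4 and 40.8 at 4 h, 38.7 and 34.9 at 6 h and 42.7 and 39.7 at 8 h FPKM with overlapping sides and a difference of -0.12 ± 0.10 (SE). The mitochondrial ribosomal proteins had a median of -0.094, with 68 of 76 below 0 and 6 below without overlap (7.89%, against 2.2% of all genes). The spliceosome core had a median of -0.089, with 38 of 49 below 0 and 6 below without overlap (12.2%, against 2.2% of all genes). Oxidative phosphorylation had a median of -0.057 with 55 of 74 below 0, the proteasome -0.063 with 30 of 41, and the cytosolic ribosomal proteins -0.050 with 47 of 76. In these last 3 lists, 2, 0 and 1 members lay below without overlap (2.7%, 0% and 1.32%, against 2.2% of all genes). With quantile normalization the median of the cytosolic ribosomal proteins was 0.0047.

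Since transcript length moved with the sides, the medians were also taken with the trend removed. With the GC and length trend taken out, they were -0.089 for ribosome biogenesis, -0.065 for mitochondrial ribosomal proteins, -0.075 for the spliceosome core, -0.030 for oxidative phosphorylation, -0.024 for the proteasome and -0.0098 for cytosolic ribosomal proteins. The medians of the mitosis, G1/S and sterol lists with the trend removed were -0.16, -0.15 and -0.14.

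**Figure D4:**
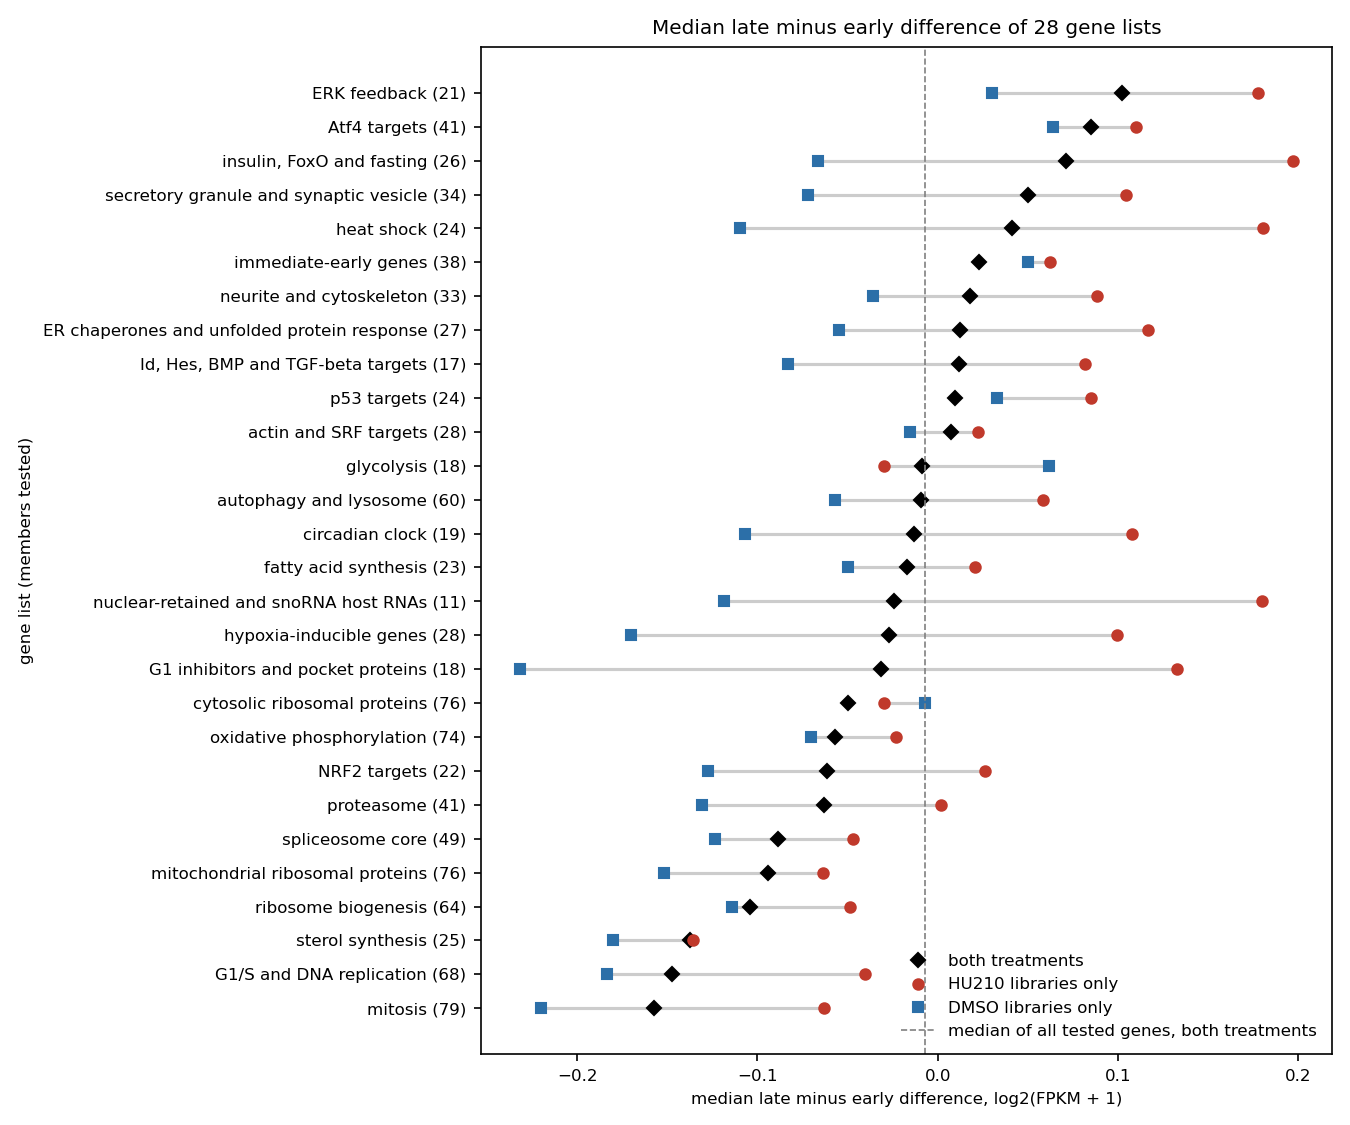
Each row is 1 of the 28 gene lists, with the number of tested members in brackets, and the horizontal axis is the median late minus early difference of the members on the log2(FPKM + 1) scale, for both additions (black diamonds), for HU210 alone (red circles) and for DMSO alone (blue squares); the dashed line is the median of all tested genes. The black diamonds run from -0.16 for mitosis to 0.10 for ERK feedback, and the HU210 point lies to the right of the DMSO point in every list but glycolysis and cytosolic ribosomal proteins, beside medians over all genes of 0.061 and -0.058.

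At the other end, ERK feedback genes, which encode phosphatases and inhibitors that ERK signalling induces, had a median of 0.10, with 18 of 21 members above 0, against 47.8% of all genes. None was called, 3 were higher at an unadjusted p under 0.05, against 4.33% of all genes, and the sides did not overlap for Dusp10 and Spry4 (9.52%, against 3.24%). The median was 0.030 within DMSO and 0.18 within HU210, beside -0.058 and 0.061 over all genes, and the mean deviation of the members in DMSO at 8 h was -0.10, below 3 of the 4 early libraries. Spry4, an inhibitor of receptor tyrosine kinase signalling, was at 9.06 and 7.73 at 2 h, 8.95 and 8.66 at 4 h, 9.32 and 10.2 at 6 h and 11.4 and 9.58 at 8 h FPKM, a difference of 0.21 ± 0.082 (SE). Dusp6, the cytoplasmic ERK phosphatase, was at 74.7 and 47.5 at 2 h, 68.99 and 51.5 at 4 h, 66.5 and 74.8 at 6 h and 76.8 and 58.6 at 8 h FPKM, and its difference was 0.41 within DMSO and -0.0068 within HU210, where the values were high from 2 h on. The immediate-early genes had a median of 0.023 over 38 members, with 24 above 0. Only Klf6 lay above without overlap (2.63%, against 3.24% of all genes). Fos was at 2.70 and 1.80 at 2 h, 1.88 and 1.42 at 4 h, 1.83 and 1.79 at 6 h and 1.83 and 1.54 at 8 h FPKM, a difference of -0.088 ± 0.11 (SE), and Egr1 at 36.8 and 18.3 at 2 h, 24.3 and 18.8 at 4 h, 19.2 and 27.04 at 6 h and 32.2 and 18.9 at 8 h FPKM, a difference of 0.0076 ± 0.21 (SE). Both genes encode transcription factors that growth factors induce within minutes, and their highest value was HU210 at 2 h.

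The Atf4 targets, genes of amino acid supply and of the integrated stress response, had a median of 0.085. Of its 41 members, 34 were above 0, against 47.8% of all genes. At an unadjusted p under 0.05 by limma, 2 members were higher, against 4.33% of all genes. Ddit3, the stress-induced factor CHOP, was the only member without overlap (2.44%, against 3.24% of all genes) and stood at 90.8 and 91.3 at 2 h, 99.9 and 89.8 at 4 h, 100.2 and 108 at 6 h and 119 and 101 at 8 h FPKM, a difference of 0.20 ± 0.082 (SE). Asns, asparagine synthetase, was at 457 and 489.7 at 2 h, 475 and 649 at 4 h, 458 and 457 at 6 h and 597 and 599 at 8 h FPKM, with DMSO at 4 h the highest of all 8 and a difference of 0.03 ± 0.15 (SE). The mean deviation of the list was 0.15 in HU210 and 0.059 in DMSO at 8 h but below 0 in both 6 h libraries, and without the 8 h libraries the list's median was -0.00043. The list of ER chaperones and the unfolded protein response had a median of 0.013 over 27 members, with Syvn1 and Eif2ak3 above without overlap (7.41%, against 3.24% of all genes). Eif2ak3, the ER stress kinase PERK, was at 8.54 and 13.7 at 2 h, 9.997 and 12.8 at 4 h, 16.2 and 14.2 at 6 h and 17.2 and 23.9 at 8 h FPKM, a difference of 0.62 ± 0.15 (SE), with the highest value in DMSO at 8 h. Hspa5, the ER chaperone BiP, was at 232 and 262 at 2 h, 246 and 220.4 at 4 h, 258 and 252 at 6 h and 274 and 201 at 8 h FPKM, a difference of 0.031 ± 0.11 (SE).

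For the insulin, FoxO and fasting list the median was 0.071 over 26 members, 16 above 0, with Igf1r and Tsc22d3 above without overlap (7.69%, against 3.24% of all genes). Igf1r, the receptor of IGF1, was at 9.64 and 9.78 at 2 h, 12.1 and 14.6 at 4 h, 17.2 and 18.8 at 6 h and 18.9 and 18.1 at 8 h FPKM, a difference of 0.64 ± 0.12 (SE, adjusted p = 0.471 by limma), and both 4 h values lay between those of 2 h and 6 h. The difference of Igf1r was 0.84 without the 4 h libraries and 0.43 without the 2 h libraries. Irs2, an adaptor of the insulin receptor, was at 44.5 and 33.8 at 2 h, 40.3 and 37.6 at 4 h, 45.2 and 48.2 at 6 h and 44.5 and 36.99 at 8 h FPKM with overlapping sides, a difference of 0.16 ± 0.1 (SE). The circadian clock list had a median of -0.013 over 19 members, with Arntl, Nr1d1 and Nfil3 above without overlap (15.8%, against 3.24% of all genes). Arntl, the clock factor BMAL1, was at 5.22 and 5.03 at 2 h, 5.05 and 5.04 at 4 h, 5.67 and 6.14 at 6 h and 7.55 and 5.72 at 8 h FPKM, a difference of 0.25 ± 0.09 (SE), and its partner in the feedback loop Per1 was at 4.12 and 3.76 at 2 h, 2.93 and 2.82 at 4 h, 3.997 and 3.47 at 6 h and 2.92 and 3.03 at 8 h FPKM, a difference of -0.013 ± 0.12 (SE).

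The neuronal lists lay near the median of all genes. The neurite and cytoskeleton list had a median of 0.018 over 33 members, 18 above 0, and its members above without overlap were Dpysl2 and Map1b (6.06%, against 3.24% of all genes). Mapt, which encodes tau, was at 36.5 and 32.7 at 2 h, 35.98 and 41.3 at 4 h, 40.7 and 41.4 at 6 h and 46.7 and 43.6 at 8 h FPKM, a difference of 0.23 ± 0.091 (SE), and Stmn2, a microtubule regulator of growth cones, was at 129 and 155 at 2 h, 154 and 129.9 at 4 h, 157 and 145 at 6 h and 139 and 147 at 8 h FPKM, a difference of 0.054 ± 0.096 (SE). In both genes the sides overlapped. The secretory granule and synaptic vesicle list had a median of 0.050 over 34 members, 21 above 0, with 1 member above (2.94%, against 3.24% of all genes) and 2 below without overlap (5.88%, against 2.2%), the latter being Dbh and Npy. The neuropeptide gene Npy was at 13.1 and 14.2 at 2 h, 13.5 and 12.1 at 4 h, 10.9 and 11.3 at 6 h and 8.28 and 8.91 at 8 h FPKM, a difference of -0.40 ± 0.11 (SE), with the lowest values at 8 h. Chga, a granin of dense-core vesicles, was at 62.99 and 66.1 at 2 h, 63.1 and 53.5 at 4 h, 62.8 and 56.5 at 6 h and 51.4 and 54.5 at 8 h FPKM, a difference of -0.12 ± 0.096 (SE).

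In the list of Id, Hes, BMP and TGF-beta targets the median was 0.012 over 17 members, 9 above 0. Id2 and Id3 encode inhibitors of basic helix-loop-helix factors, and both were high at 2 h. Id2 was at 4.27 and 5.19 at 2 h, 2.59 and 3.10 at 4 h, 2.51 and 2.23 at 6 h and 2.12 and 2.18 at 8 h FPKM, a difference of -0.52 ± 0.16 (SE). It was the only member below without overlap (5.88%, against 2.2% of all genes). Id3 was at 18.1 and 16.3 at 2 h, 11.1 and 8.55 at 4 h, 8.996 and 9.38 at 6 h and 8.11 and 5.79 at 8 h FPKM, a difference of -0.64 ± 0.22 (SE). In both genes the 4 h values were closer to the late side than to those of 2 h, and the differences were -0.81 and -1.02 without the 4 h libraries and -0.24 and -0.26 without the 2 h libraries.

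The remaining lists had medians between -0.061 and 0.041. The hypoxia-inducible genes stood at -0.027 over 28 members. Without overlap, Hk2 lay above (3.57%, against 3.24% of all genes) and Car12 below (3.57%, against 2.2%). Vegfa, the vascular growth factor, was at 70.4 and 69.8 at 2 h, 74.9 and 62.3 at 4 h, 74.2 and 87.3 at 6 h and 86.5 and 77.5 at 8 h FPKM, a difference of 0.23 ± 0.091 (SE), and Ndrg1, a gene of hypoxia and differentiation, was at 7.68 and 2.30 at 2 h, 1.87 and 3.23 at 4 h, 7.16 and 6.10 at 6 h and 2.53 and 2.25 at 8 h FPKM, a difference of 0.23 ± 0.41 (SE), with values from 1.87 to 7.68 FPKM among the early and from 2.25 to 7.16 FPKM among the late libraries. The actin and SRF targets had a median of 0.0076 over 28 members. Without overlap, Vcl and Myh9 lay above (7.14%, against 3.24% of all genes) and Tpm1 below (3.57%, against 2.2%). Vcl, the focal adhesion protein vinculin, was at 33.7 and 30.8 at 2 h, 35.2 and 32.8 at 4 h, 38.5 and 36.4 at 6 h and 38.96 and 38.3 at 8 h FPKM, a difference of 0.19 ± 0.066 (SE). Actb, beta-actin, was at 4827 and 2656 at 2 h, 5793 and 2464 at 4 h, 3378 and 3332 at 6 h and 3447 and 4631 at 8 h FPKM, a difference of -0.0066 ± 0.25 (SE), with HU210 high and DMSO low in the early libraries. The median was 0.041 for heat shock (24 members, 0 without overlap) and -0.024 for nuclear-retained and snoRNA host RNAs (11 members, 0 without overlap). It was -0.0085 for glycolysis over 18 members, with Hk2 above without overlap (5.56%, against 3.24% of all genes). For NRF2 targets it was -0.061 over 22 members, with Taldo1 below without overlap (4.55%, against 2.2%). For autophagy and lysosome it was -0.0090 over 60 members. There, without overlap, Atp6v0a1 lay above (1.67%, against 3.24%) and Atg16l1 and Glb1 below (3.33%, against 2.2%). No member of any of the 28 lists was called.

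The comparison was then made within each addition, with 2 early and 2 late libraries each and a spread estimated over all 8. Within DMSO 0% of the genes were called (smallest adjusted p = 0.276 by limma), and at an unadjusted p under 0.05 there were 287 higher (2.54%) and 1266 lower (11.2%). Within HU210 0% were called as well (smallest adjusted p = 0.0667 by limma), with 1071 higher (9.47%) and 243 lower (2.15%) at an unadjusted p under 0.05. These counts leaned in opposite directions, and so did the median difference over all genes, which was -0.058 within DMSO and 0.061 within HU210. The lean depended on the scaling of the libraries, since centring each library on its median gave 540 higher and 754 lower within DMSO and 504 higher and 716 lower within HU210. The late minus early differences had the same sign in DMSO and HU210 for 4802 genes (42.5%). Across genes they correlated at a Pearson r of -0.18 and a Spearman rho of -0.16, and the DMSO and HU210 differences share no library. The deviations of the HU210 and the DMSO library at 4 h, which enter the early side of these differences, correlated at -0.53. Their part in the r was not tested. Genes are not independent, so no p is given for the r. The same-sign share was 44.8% with centred libraries, and with the GC and length trend taken out it was 48.3% and the r -0.14. A difference of 1.3-fold in the same direction was found for 48 genes in the higher and 15 in the lower direction, and in opposite directions for 199 genes that were higher with HU210 and 21 that were higher with DMSO.

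**Figure D5:**
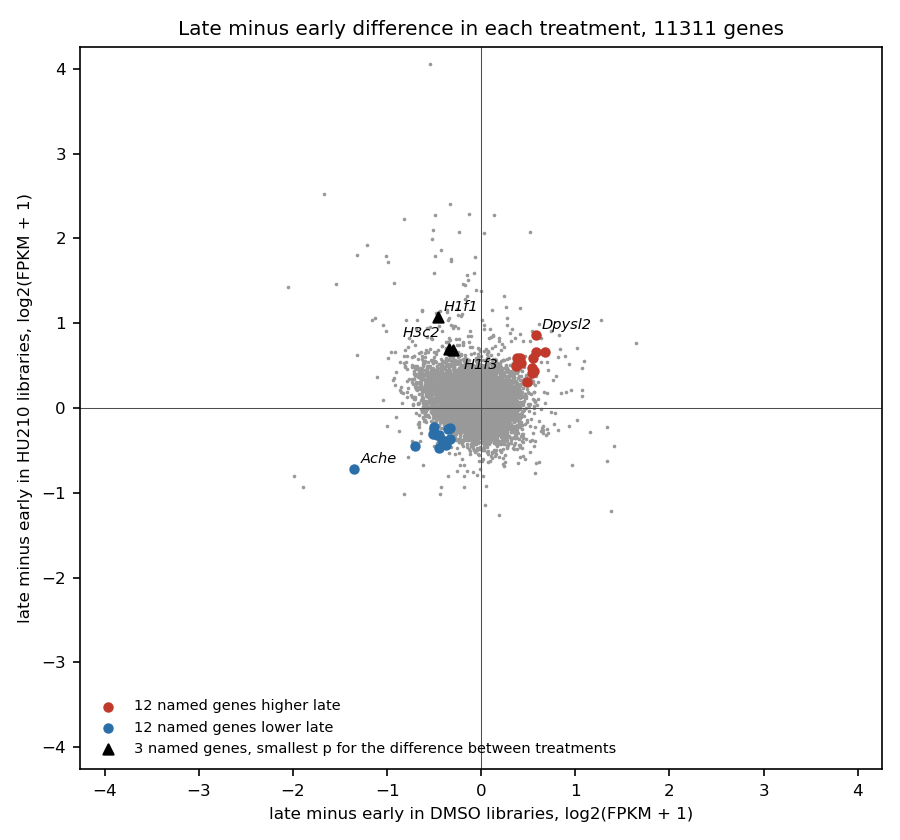
The plot shows 11311 genes by their late minus early difference in the DMSO libraries (horizontal axis) and in the HU210 libraries (vertical axis), both on the log2(FPKM + 1) scale, with the 12 named higher genes in red, the 12 named lower genes in blue and the 3 genes with the smallest p for the difference between the additions as black triangles. The named higher and lower genes lie in the quadrants where both differences have the same sign, and the triangles lie where the HU210 difference is positive and the DMSO difference negative.

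No gene passed the test of the difference between the additions (0% called, smallest adjusted p = 0.173 by limma), and at an unadjusted p under 0.05 there were 1583 genes with a larger late minus early value in HU210 (14%) and 203 with a smaller one (1.79%). The median of this difference over all genes was 0.12, and with centred libraries it was -0.031 and the counts were 762 and 678. The 3 genes with the smallest p were H1f1 (chromosome 13, 23855537 to 23856283 in mm9), H3c2 (23844136 to 23844755) and H1f3 (23646901 to 23650721). All 3 encode replication-dependent histones, whose mRNA lacks a poly(A) tail in dividing cells and whose copies in the cluster are alike, so that reads may be split among them. H1f1 stood at 1.70 and 4.54 at 2 h, 2.01 and 6.14 at 4 h, 5.62 and 3.49 at 6 h and 4.44 and 3.64 at 8 h FPKM. Its late minus early difference was 1.08 in HU210 and -0.46 in DMSO, which differ by 1.54 ± 0.22 (SE, adjusted p = 0.173 by limma). H3c2 stood at 2.15 and 4.41 at 2 h, 2.33 and 5.27 at 4 h, 4.26 and 3.63 at 6 h and 4.21 and 3.56 at 8 h FPKM and H1f3 at 1.22 and 2.53 at 2 h, 1.03 and 2.62 at 4 h, 2.47 and 1.96 at 6 h and 2.38 and 1.84 at 8 h FPKM, and the differences between the additions were 1.04 ± 0.15 (SE) and 0.99 ± 0.15 (SE). In each of the 3 genes both early HU210 libraries lay below all other 6 libraries.

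The 24 genes named for the late against early difference behaved otherwise. Dpysl2 differed by 0.58 in DMSO and by 0.86 in HU210, Nectin1 by 0.55 and 0.59, Crebbp by 0.59 and 0.66, Cdca8 by -0.37 and -0.43, and Nsun2 by -0.33 and -0.37. For Ache the values were -1.35 and -0.72, with a difference between the additions of 0.63 ± 0.40 (SE). The choice by p over both additions favours such genes, so that their like sign in HU210 and DMSO is a description.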

How the data were processed

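RNA of 8 samples of N2A cells, 1 for each combination of HU210 or DMSO with an hour of 2, 4, 6 or 8, was sequenced as poly(A)-selected mRNA. The authors mapped the reads to mm9 with TopHat2 2.0.8, Bowtie2 2.1.0 and SAMtools 0.1.7 against Ensembl gene models, without a search for new junctions, and estimated expression with Cufflinks with multi-read correction, upper-quartile normalization and fragment bias correction. The version of Cufflinks is not given in the sources used here, nor whether all hours were normalized together, so values across hours rest on the authors' scaling. The values deposited by the authors are FPKM with 1 added, which was subtracted here. The deposited columns with the log2 fold change, p-value and q-value of HU210 against DMSO, and a second table of genes selected from them, were not used. FPKM hold no read counts, so the depth behind each value is unknown, and no counting interval was made.

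Each table row was assigned to its sample by the condition it names. Genes listed at all 4 hours with a mean FPKM of at least 1 were tested on log2(FPKM + 1) in limma 3.58.1 (R 4.3.3), with a mean-variance trend, side and addition as terms, and Benjamini-Hochberg adjustment at 0.05. With the pseudocount of 1, fold changes of low genes are understated. A fit with 4 groups of 2 libraries gave the differences within each addition and between them. The script was tested on simulated data. Transcript length, GC content and coordinates came from the GENCODE annotation of the mm9 assembly, which gave them for all 15894 genes. The GC and length trend was a local regression per library. Because the DMSO and HU210 libraries of a side are different conditions, the spread between them holds both.

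The members and the 28 gene lists were chosen with earlier results of these data known. Genes named are the 12 with the smallest p in each direction, leaving out predicted and unnamed genes, the 3 with the smallest p for the difference between the additions, and up to 2 members of a list; the 29 list members named with values, and those named for not overlapping, were chosen after their values were seen. Some results are not reported here. No promoter sequence is shown, since the lists were to be shown only where members were called. Alternatives were the pseudocount, the filter on low values, median centring, quantile normalization, removal of the GC and length trend, no term for the addition, hours as a linear term, the hour as a block, and leaving out hours or single libraries. Counts at an unadjusted p and of sides that do not overlap were added after it was seen that no gene passed.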

Additional observations from a re-analysis of the deposited data

Results flagged for a closer look

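In the named genes, 112 groups of 4 libraries were examined for a highest or lowest library whose gap to the next, divided by the range of the group on the log2(FPKM + 1) scale, exceeds Dixon's critical value. Chance gives about 1 group in 20, and 8 were found. The libraries of a side are different conditions, so that such a library is not an outlier among replicates.

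DMSO at 4 h was the highest early library for Ache, at 16.3 FPKM against 7.36 FPKM in the next, for Map1b, at 125 FPKM against 105 FPKM, and for Zfhx3, at 2.96 FPKM against 2.30 FPKM. This is the library whose deviations from the gene means followed GC content with a rho of -0.46, and the part of that in these values was not tested. Srsf5 was highest among the early libraries in DMSO at 2 h, at 113 FPKM against 93.2 FPKM. Arntl was highest in HU210 at 2 h, at 5.22 FPKM against 5.05 FPKM, a small step in a narrow range. Ddit3 was highest among the early libraries in HU210 at 4 h, at 99.9 FPKM against 91.3 FPKM. Among the late libraries, DMSO at 8 h was the lowest for Fos, at 1.54 FPKM against 1.79 FPKM, and the highest for Actb, at 4631 FPKM against 3447 FPKM.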

How the results depend on the processing

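The counts of called genes stayed at 0 in both directions under 20 of 21 alternatives, and removing the GC and length trend gave 1 gene higher late, Dpysl2, which also passed 1.3-fold. With no filter on low values, 4 genes were called higher and 2 lower within DMSO, 1 lower within HU210 and 7 for the difference between the additions, and 753 and 507 genes were higher and lower late at an unadjusted p under 0.05. Those last counts, 490 and 325 as reported, were 842 and 846 without the 4 h libraries, 193 and 86 without the 2 h libraries, 268 and 127 without the 8 h libraries, and 655 lower with hours as a linear term. Leaving out single libraries gave 279 to 842 higher and 143 to 675 lower, with the most higher without DMSO at 4 h and the most lower without HU210 at 4 h. Sides that do not overlap, 366 and 249 as reported, were 286 and 394 with centred libraries and 1592 and 1760 without the 4 h libraries, where fewer values have to be separated.

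Of 56 named genes, 48 kept their sign under every alternative run, and 1119 of 1163 values had the sign reported. The other 8 genes had differences smaller than their standard errors. Egr1 was at -0.0052 with centred libraries, -0.026 with linear hours, -0.13 without 4 h and -0.048 without 8 h. Actb was at 0.11 with quantile normalization, 0.013 with the trend removed, 0.061 with linear hours, 0.032 without 4 h and 0.12 without 6 h. Hspa5 was at -0.015 with linear hours, -0.0095 without 4 h and -0.027 without 6 h, and Ndrg1 at -0.17, -0.077 and -0.35. Without 2 h, Fos was at 0.055, Per1 at 0.16 and Asns at -0.086, and without 8 h Per1 was at 0.11 and Asns at -0.16. Leaving out single libraries gave ranges of -0.089 to 0.064 for Per1, -0.14 to 0.20 for Egr1, -0.012 to 0.12 for Hspa5, -0.061 to 0.58 for Ndrg1, -0.23 to 0.17 for Actb, -0.074 to 0.14 for Asns, -0.15 to 0.0083 for Fos and -7.88e-05 to 0.11 for Stmn2.

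In 574 of 588 values the list median moved by less than the pooled standard deviation of the list's library means. Changes of sign can be that small. The mitosis, G1/S and sterol lists kept their sign in all 21 alternatives, but glycolysis did so in 11, the ER chaperone list in 15 and autophagy in 16. Without the 2 h libraries the median was -0.084 for mitosis, -0.054 for sterol synthesis and 0.11 for the circadian clock, and the cause was not tested. Late libraries could not be paired with early ones, since each hour lies wholly on the early or the late side and the labels give no replicate numbers. With the hour as a block the correlation was -0.11 and the count of calls 0. The unknown depth limits what can be said of genes at low FPKM.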
